A study of Mus musculus with 24 samples.

Results

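Krt18, Krt8, Cutal, D030018L15Rik, Coro1a and Hspb3 are the 6 genes followed here, of 23177 in the expression table of the Zbtb16 mice. They were picked because their values were higher in Zbtb16-null than in WT libraries of both sorted fractions, with Krt8 added as the partner of Krt18. The difference between null and WT is therefore a description of how they were chosen and carries no test. The choice did not use their values in the Sox3 mice, whose table of 21688 genes holds all 6 of them, nor what their families and their neighbours on the chromosome did.

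RNA was sequenced from testis cells of mice at postnatal day 7, sorted magnetically for THY1 or for KIT. The study calls these undifferentiated spermatogonia (THY1+ uSPG) and differentiating ones (KIT+ dSPG). Genes of other cell types were also measured in both fractions, as given below. The testes of 3 mice were pooled for an isolation. In the Zbtb16 set, null mice carried the luxoid allele of Zbtb16 on the C57BL/6J background and were compared with mice labelled WT. The methods describe littermate controls that included heterozygotes. In the Sox3 set, the conditional knockout (cKO) combined a floxed Sox3 with a Cre under the Ddx4 (Vasa) promoter, which acts in male germ cells, on the B6 background, and its controls were labelled WT. Each set had 3 libraries for each genotype and fraction, so that 24 libraries fell into 8 groups. Nothing states which libraries came from separate litters or sort days, so p-values measure the spread between these libraries.

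Zbtb16 RNA fell in the null libraries. It was 55.7, 58.7 and 42.0 FPKM (fragments per kilobase of transcript, scaled to the mapped reads of the library) in WT THY1+ and 17.5, 18.2 and 15.6 FPKM in null THY1+, and it was 14.4, 23.0 and 17.1 FPKM in WT KIT+ and 6.69, 6.59 and 6.11 FPKM in null KIT+. Sox3 RNA had 0 to 2 reads in each cKO library of its table, and every WT library there was at 6.28 FPKM or above. Depth, recovered from the steps between low FPKM values, was 26000000 to 35200000 reads in the Zbtb16 libraries. In the Sox3 libraries it was 28300000 to 31900000 reads for the replicates numbered 1 and 11000000 to 14900000 reads for the others. In the WT libraries of the Sox3 table the sorting markers go against the fraction labels. Where the label was THY1+, Thy1 was at 0.240 ± 0.0233 FPKM (SD, n = 3), and where it was KIT+ at 3.83 ± 0.234 FPKM, whereas cKO libraries had 4.62 ± 0.886 FPKM in THY1+ and 0.274 ± 0.0264 FPKM in KIT+. Kit had the reverse order, 57.9 ± 19.2 FPKM under the THY1+ label and 15.3 ± 3.08 FPKM under the KIT+ label. No library was moved to another group, and the WT groups of this table carry the word labelled in what follows.

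ZBTB16, also known as PLZF, is a zinc finger transcription factor that the study describes as both an activator and a repressor. It marks undifferentiated spermatogonia, and without it the pool of spermatogonial stem cells is lost with age. Keratin 8, of type II, and keratin 18, of type I, pair with each other to form the intermediate filaments of simple epithelia. CORO1A is a coronin, an actin-binding protein that is most abundant in blood cells and interacts with the Arp2/3 complex, which nucleates branched actin. HSPB3 is a small heat shock protein best known from muscle. CUTAL is named for its likeness to CUTA, a protein related to bacterial CutA. D030018L15Rik is listed as a long intergenic non-coding RNA in GENCODE M21 and as a transcribed pseudogene in RefSeq.

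The members sit at 5 places in the genome (GRCm38, the same assembly as mm10, spans from GENCODE M21). Krt18 (ENSMUSG00000023043) is at chr15:102028180-102032027 on the plus strand, and Krt8 (ENSMUSG00000049382) is its neighbour at chr15:101996698-102004482 on the minus strand, with the 2 genes read away from each other. D030018L15Rik (ENSMUSG00000078925) lies on the same chromosome at chr15:96051603-96079553 on the minus strand. Cutal (ENSMUSG00000026870) is at chr2:34874396-34892132 on the plus strand, Coro1a (ENSMUSG00000030707) at chr7:126699773-126707787 on the minus strand and Hspb3 (ENSMUSG00000051456) at chr13:113662896-113663676 on the minus strand.

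RefSeq promoter windows (GRCm38.p6) of 300 bases, from 250 before to 50 after a transcript's first base, were found for 5 of the 6 genes. They are shown because these genes were higher together in the same libraries, with Krt18 and Krt8 facing away from each other. Each window is printed in the direction of its gene, and capitals mark motifs searched on both strands. These were TATAAA (the TATA box), GGGCGG (the GC box), CCAAT (the CCAAT box), CACGTG (an E-box) and AACAAT (a core of SOX factor sites).
Krt18, chr15:102027966-102028265, plus strand: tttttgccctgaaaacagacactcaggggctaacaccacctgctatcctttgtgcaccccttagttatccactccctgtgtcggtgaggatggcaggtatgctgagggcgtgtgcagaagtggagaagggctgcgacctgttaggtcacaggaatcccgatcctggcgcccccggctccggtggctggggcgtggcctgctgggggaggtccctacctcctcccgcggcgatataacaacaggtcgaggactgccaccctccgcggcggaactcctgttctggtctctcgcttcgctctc
Krt8, chr15:102004293-102004592, minus strand: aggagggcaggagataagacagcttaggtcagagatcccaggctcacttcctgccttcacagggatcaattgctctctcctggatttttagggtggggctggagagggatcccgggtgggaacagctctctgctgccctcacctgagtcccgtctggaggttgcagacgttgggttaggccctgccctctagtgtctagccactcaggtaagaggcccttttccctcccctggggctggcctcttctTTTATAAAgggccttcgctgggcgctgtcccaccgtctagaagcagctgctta
Cutal, chr2:34874146-34874445, plus strand: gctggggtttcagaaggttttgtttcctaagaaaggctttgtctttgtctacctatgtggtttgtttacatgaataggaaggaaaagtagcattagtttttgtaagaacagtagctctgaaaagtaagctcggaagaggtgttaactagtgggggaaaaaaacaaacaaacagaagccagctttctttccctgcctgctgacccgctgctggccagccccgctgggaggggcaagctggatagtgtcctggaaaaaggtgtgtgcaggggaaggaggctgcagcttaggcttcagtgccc
Coro1a, chr7:126704767-126705066, minus strand: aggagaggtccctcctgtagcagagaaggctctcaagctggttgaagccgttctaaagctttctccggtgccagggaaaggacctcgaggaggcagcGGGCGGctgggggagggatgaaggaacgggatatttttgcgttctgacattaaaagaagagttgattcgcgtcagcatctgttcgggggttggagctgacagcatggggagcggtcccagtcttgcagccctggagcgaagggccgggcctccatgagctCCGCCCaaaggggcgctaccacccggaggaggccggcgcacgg
Hspb3, chr13:113663627-113663926, minus strand: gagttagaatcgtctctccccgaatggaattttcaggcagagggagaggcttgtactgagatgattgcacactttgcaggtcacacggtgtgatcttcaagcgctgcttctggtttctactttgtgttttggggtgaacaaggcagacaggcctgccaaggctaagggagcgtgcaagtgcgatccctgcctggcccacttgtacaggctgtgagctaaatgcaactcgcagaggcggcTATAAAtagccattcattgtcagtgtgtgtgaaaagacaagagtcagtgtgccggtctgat

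No motif was shared by more than 2 of the 5 genes. TATAAA was found in those of Krt8, where matches on both strands overlap in 1 run of letters at the transcript start, and of Hspb3, 11 bases before the start, and 13.6% of all 32851 mouse windows of this length hold it. GGGCGG was found at 2 places in the Coro1a window shown and once in a second RefSeq window of Coro1a (chr7:126704171-126704470), and 35.7% of all windows hold it. No match to CCAAT (in 37.4% of all windows), CACGTG (7.15%) or AACAAT (10.7%) was in any of the 6 windows. The windows shown of Krt18 and Coro1a held 17 and 19 CpG dinucleotides against a median of 7 over all windows, at percentiles 68.6 and 71.9. The second Coro1a window held 10, the Krt8 window 6, that of Hspb3 9 and that of Cutal 3.

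Krt18 had one of the widest gaps between null and WT of the whole table. In THY1+ uSPG it was 1.02, 1.38 and 1.32 FPKM in the WT libraries and 13.9, 14.5 and 17.1 FPKM in the null libraries. In KIT+ dSPG it was 0.476, 0.487 and 0.508 FPKM in WT and 2.34, 2.30 and 2.58 FPKM in null. All null libraries were above all WT libraries in both fractions, and the null KIT+ libraries were also above the WT THY1+ libraries. The ratio of the mean FPKM was 12.2 in THY1+ and 4.91 in KIT+. On the log2(FPKM + 0.1) scale the changes were 3.51 ± 0.15 (SE) and 2.08 ± 0.15, which with 0.1 added placed Krt18 at rank 2 and rank 9 from the top of 22374 tested genes. The values rested on 43 to 58 reads a library in WT THY1+ and on 548 to 730 in null THY1+.

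Krt8, the filament partner, stayed at a low level throughout. It was 0.184, 0.111 and 0.124 FPKM in WT THY1+ and 0.531, 0.362 and 0.381 FPKM in null THY1+. In KIT+ it was 0.117, 0.142 and 0.113 FPKM in WT and 0.213, 0.334 and 0.315 FPKM in null. The groups did not overlap in either fraction, but the values came from 6 to 27 reads a library, so that a few reads move them. The changes on the log2(FPKM + 0.1) scale were 1.13 ± 0.20 in THY1+ and 0.78 ± 0.20 in KIT+. Krt8 has a pseudogene on chromosome 7, Krt8-ps, and the alignment setting kept reads with many placements, so a share of these reads could belong to a copy.

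The proportion of the 2 keratins also differed between groups, given here with no test since it derives from the same values. The FPKM of Krt18 was 9.56 ± 3.59 times that of Krt8 (mean and SD of the ratio over 3 libraries) in WT THY1+ and 4.01 ± 0.541 times in WT KIT+. In null libraries it was 37.0 ± 9.69 times in THY1+ and 8.68 ± 2.08 times in KIT+. The lowest ratio in null THY1+ was 26.2, and the highest in any library of the other 3 groups was 12.5.

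**Figure D1:**
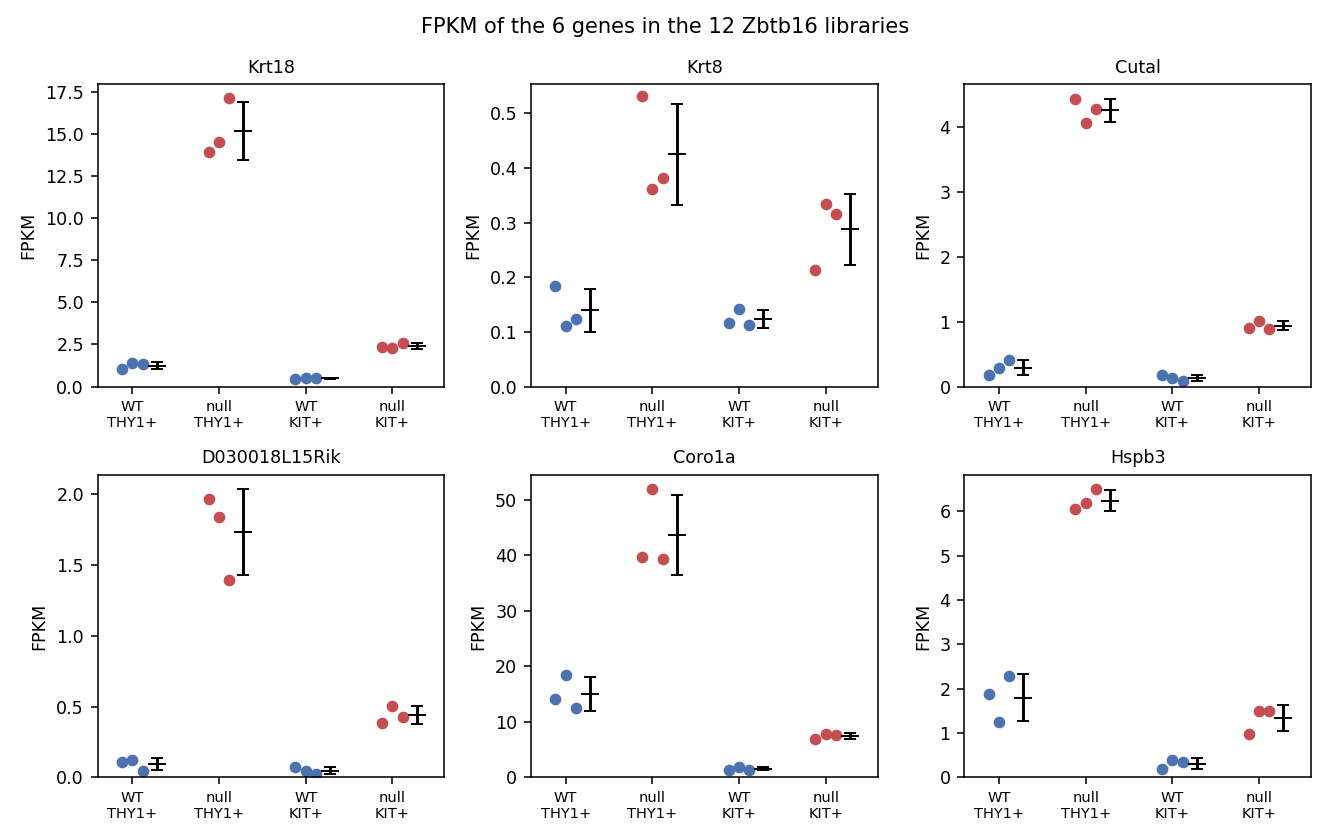
FPKM (y axis, linear from 0, a scale for each gene) of Krt18, Krt8, Cutal, D030018L15Rik, Coro1a and Hspb3 in the 12 Zbtb16 libraries, grouped by genotype and fraction on the x axis, where coloured points are libraries and the black mark and bar beside them the mean and SD of 3. In all 6 panels the null THY1+ libraries are the highest, and in each fraction every null library is above every WT library.

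Cutal and D030018L15Rik followed the pattern of Krt18. Cutal was 0.177, 0.286 and 0.405 FPKM in WT THY1+ and 4.42, 4.06 and 4.27 FPKM in null THY1+. In KIT+ it was 0.172, 0.140 and 0.0832 FPKM in WT and 0.900, 1.02 and 0.891 FPKM in null. Null and WT libraries were far apart in both fractions, by a ratio of means of 14.7 in THY1+ and 7.10 in KIT+. The log2(FPKM + 0.1) change of 3.52 ± 0.22 in THY1+ was the highest of all 22374 genes with 0.1 added, but the order depends on the added value. With 1 added the Cutal change was 2.03 and that of Krt18 2.85, and with 0.01 added it was 3.90 and that of D030018L15Rik 4.18. Cutal shares 573 bases with Psmd5, which encodes a proteasome assembly factor on the opposite strand, and the sources do not say whether reads were counted by strand. Psmd5 had a change of 0.40 ± 0.13 in THY1+ (adjusted p = 0.0892, limma) and -0.15 ± 0.13 in KIT+ (adjusted p = 0.555).

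D030018L15Rik, the non-coding gene, was close to the limit of detection in WT. It had 14, 16 and 6 reads (0.108, 0.124 and 0.0445 FPKM) in WT THY1+ and 239, 218 and 183 reads (1.97, 1.84 and 1.39 FPKM) in null THY1+. In KIT+ it had 9, 7 and 3 reads (0.0733, 0.0462 and 0.0236 FPKM) in WT and 43, 65 and 55 reads (0.385, 0.505 and 0.427 FPKM) in null. The ratio of mean FPKM was 18.8 in THY1+, the widest of the 6 genes, and 9.21 in KIT+. Because the WT level was near the 0.1 added before taking logs, the log2 changes of 3.27 ± 0.22 and 1.88 ± 0.22 understate those ratios, and with 1 added they were 1.32 and 0.46.

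Coro1a differed from the genes above in that it was abundant in the WT THY1+ libraries and low in the WT KIT+ libraries. Leukocyte genes had the same order between these fractions, as given below. It was 14.1, 18.4 and 12.4 FPKM in WT THY1+ and 39.6, 51.9 and 39.3 FPKM in null THY1+. In KIT+ it was 1.37, 1.91 and 1.37 FPKM in WT and 6.84, 7.86 and 7.62 FPKM in null. Null libraries were above WT libraries in both fractions, but those of null KIT+ stayed below all WT THY1+ libraries. The log2(FPKM + 0.1) change was 1.54 ± 0.17 in THY1+ and 2.20 ± 0.17 in KIT+, so that here the KIT+ change was the larger one.

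Hspb3 had changes of like size in both fractions with 0.1 added before taking logs. It was 1.87, 1.24 and 2.29 FPKM in WT THY1+ and 6.04, 6.18 and 6.50 FPKM in null THY1+. In KIT+ it was 0.180, 0.400 and 0.347 FPKM in WT and 0.987, 1.501 and 1.499 FPKM in null. The null KIT+ libraries overlapped with the WT THY1+ libraries. Its log2(FPKM + 0.1) changes were 1.78 ± 0.27 and 1.83 ± 0.27.

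By the study's thresholds (adjusted p at most 0.05 and at least 1.5-fold), 6 of the 6 genes were past the rule in THY1+, where 2.71% of all tested genes were called higher in null. In KIT+ 5 of 6 were past it, all but Krt8, where 0.192% of all genes were. Null libraries lay wholly above WT libraries for all 6 genes in both fractions, and did so for 15.5% of all tested genes in THY1+ and 8.73% in KIT+. As these contrasts chose the genes, the counts describe the choice. The description as higher in both fractions thus holds for Krt8 in KIT+ by the order of the libraries and not by the rule.

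The size of the change by fraction divided the set. The KIT+ change less the THY1+ change was -1.43 ± 0.21 for Krt18, -1.35 ± 0.32 for Cutal and -1.39 ± 0.31 for D030018L15Rik on the log2(FPKM + 0.1) scale. It was -0.35 ± 0.28 for Krt8, 0.04 ± 0.38 for Hspb3 and 0.66 ± 0.25 for Coro1a. For Hspb3 the fraction with the larger change depended on the value added before taking logs. In Krt18, Krt8, Cutal and D030018L15Rik the null KIT+ level exceeded the WT THY1+ level, by ratios of means of 1.94, 2.06, 3.23 and 4.77. In Coro1a the WT THY1+ mean was 2.01 times the null KIT+ mean. These differences derive from the contrasts that chose the genes and were given no test.

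The fraction difference within WT was tested, although the same WT libraries are part of the choosing contrasts. Of the 6 genes, 4 were lower in WT KIT+ dSPG than in WT THY1+ uSPG, beside 14.0% of all 22374 genes. Coro1a fell by 3.18 ± 0.17 on the log2(FPKM + 0.1) scale (limma with Benjamini-Hochberg adjustment, adjusted p = 2.8e-07), Hspb3 fell by 2.22 ± 0.27 (adjusted p = 0.000113), Krt18 fell by 1.17 ± 0.15 (adjusted p = 0.000144) and Cutal fell by 0.73 ± 0.22 (adjusted p = 0.0313). Krt8 had a difference of -0.09 with a 95% interval from -0.52 to 0.35 (adjusted p = 0.778), and D030018L15Rik one of -0.37 from -0.85 to 0.11 (adjusted p = 0.239). D030018L15Rik was under the minimum of 0.1 FPKM in both WT groups (means of 0.0920 and 0.0477 FPKM) and was tested only because the null libraries raised its mean, so its value says little about WT, and the count without it is 4 of 5. With 1 in place of 0.1 added to FPKM, Krt18 (-0.58) and Cutal (-0.19) were no longer past the rule. The Cutal call was also lost when WT THY1+ replicate 2 or 3 or WT KIT+ replicate 2 or 3 was left out, where the difference lay between -0.76 and -0.52. In null mice the order was the same for all 6 genes, with differences from -2.60 for Krt18 to -0.44 for Krt8.

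In bulk RNA a higher share of cells that make a transcript and more of it in each cell cannot be told apart. Coro1a is expressed by leukocytes, and a list of 12 pan-leukocyte genes (Ptprc, Lcp1, Cd53 and others) was therefore summed in each library. The sum was 101 to 125 FPKM in WT THY1+ and 63.6 to 99.4 FPKM in null THY1+. The part of leukocytes in the THY1+ change of Coro1a was not tested. In THY1+ 11 of the 12 genes had a negative change, none past the rule, with 3 at an unadjusted p under 0.05 (limma) and a median log2 change of -0.67 against -0.03 over all genes. Of all 22374 tested genes, 5325 were at that p in THY1+ and 3863 in KIT+. In KIT+ the sum was 5.47 to 5.65 FPKM in WT and 4.84 to 8.80 FPKM in null, while Coro1a alone was 6.84 to 7.86 FPKM in null. There 8 of the 12 genes had a positive change, as Coro1a had, and 4 a negative one, none past the rule. Of the 12, 3 had an unadjusted p under 0.05 (limma), and the median was 0.29 against 0.006 over all genes. Their part in the KIT+ change of Coro1a was not tested. Between the fractions the list moved with Coro1a. All 12 genes were lower in WT KIT+ than in WT THY1+ and all 12 were past the rule, and the part of leukocytes in the fraction difference of Coro1a was not tested. No gene of the list was at 0 in any group. The macrophage and T cell lists were lower in null THY1+ as well, with 12 of 12 and 6 of 8 genes negative, and 1 macrophage gene, Cd68, was past the rule (-0.79). The macrophage list summed to 977 to 1148 FPKM in WT THY1+ and to 7.31 to 8.75 FPKM in WT KIT+. All 12 of its tested genes were past the rule as lower in WT KIT+, as were 6 of 8 T cell genes.

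**Figure D2:**
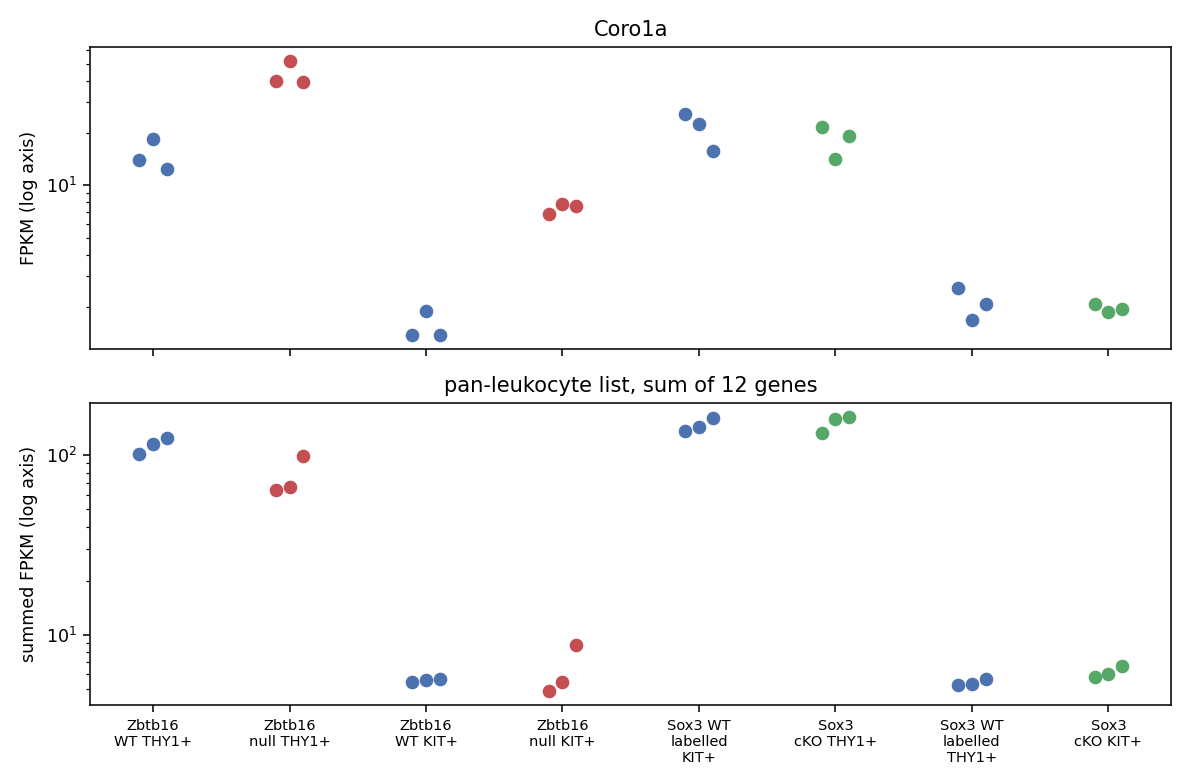
Coro1a FPKM in each library (top, log axis) and the summed FPKM of 12 pan-leukocyte genes in each library (bottom, log axis, ordered by value within a group), for the 8 groups on the x axis, with WT in blue, Zbtb16 null in red and Sox3 cKO in green. Null THY1+ libraries are above WT THY1+ in the top panel (39.3 to 51.9 against 12.4 to 18.4) and below them in the bottom panel (63.6 to 99.4 against 101 to 125).

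Markers of other somatic cells that can express Krt8 and Krt18 were also set beside them. The Sertoli cell list (12 genes, Sox9, Amh and others) summed to 40.8 to 67.8 FPKM in WT THY1+ and 30.4 to 42.5 FPKM in null THY1+, and to 100 to 163 FPKM in WT KIT+ and 166 to 233 FPKM in null KIT+. In null KIT+ it was thus higher, as the 6 genes were, with 10 of 12 genes positive, none past the rule and 4 at an unadjusted p under 0.05 (limma). The same held in KIT+ for Leydig cell (7 of 8 positive), peritubular and stromal (10 of 11) and endothelial (9 of 9) lists, none with a gene past the rule and with 3, 3 and 2 genes at that p. Of all 22374 tested genes, 3863 were at that p in KIT+. Leydig cell genes summed to 1230 to 2311 FPKM in WT KIT+ and 2074 to 3163 FPKM in null KIT+. The part of these 4 lists in the KIT+ differences was not tested. In THY1+ these 4 lists had median changes of -0.53, -0.73, -0.60 and -0.51, and their part in the THY1+ differences of the 6 genes was not tested. The mesothelial list (Msln, Upk3b, Upk1b, Lrrn4 and Krt19) summed to 1.35 to 1.74 FPKM in WT THY1+ and 1.64 to 2.17 FPKM in null THY1+, and to 1.36 to 2.03 and 1.65 to 2.11 FPKM in WT and null KIT+. Its part in the Krt18 and Krt8 differences was not tested. Germ cell genes summed to 1075 to 1434 FPKM in WT KIT+ and 806 to 1212 FPKM in null KIT+. They had a median change of 0.32 in THY1+, with 7 of 8 positive and 1, Dppa4, past the rule (1.14), and of -0.22 in KIT+. Markers of undifferentiated spermatogonia had medians of -0.15 in both, with 4 of 17 past the rule in THY1+ and 2 of 17 in KIT+, all lower and Zbtb16 among them, and those of differentiating spermatogonia had -0.03 and -0.25 with none past the rule.

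The Sox3 libraries, which had no part in choosing the genes, show them without SOX3. Coro1a was 21.8, 14.2 and 19.3 FPKM in cKO THY1+ and 2.07, 1.88 and 1.94 FPKM in cKO KIT+. In WT it was 2.56, 1.69 and 2.07 FPKM in the libraries labelled THY1+ and 25.6, 22.5 and 15.7 FPKM in those labelled KIT+. Krt18 was 2.01, 2.66 and 2.49 FPKM in cKO THY1+, 0.809, 0.423 and 1.27 FPKM in cKO KIT+, 0.874, 0.472 and 0.370 FPKM in WT labelled THY1+ and 1.91, 2.39 and 1.22 FPKM in WT labelled KIT+. No library of the Sox3 table came near the 13.9 FPKM or more of Krt18 in null THY1+. By their means both genes were higher in the 2 groups with the higher Thy1 values.

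Hspb3 had the same order. It was 1.52, 1.63 and 1.03 FPKM in cKO THY1+ and 1.59, 2.32 and 1.28 FPKM in WT labelled KIT+, against 0.363, 0.758 and 0.433 FPKM in cKO KIT+ and 0.321, 0.188 and 0.474 FPKM in WT labelled THY1+. Cutal stayed between 0.0435 and 0.227 FPKM in all 12 libraries, with 3 to 17 reads each, and Krt8 between 0.0936 and 0.338 FPKM with 2 to 18 reads each. The ranges of all 4 groups overlapped with the next for both of these genes. Of groups further apart in order, Cutal in cKO KIT+ (0.0435 to 0.138 FPKM, 3 or 4 reads) lay below 2 others. These were cKO THY1+ (0.183 to 0.222 FPKM) and WT labelled KIT+ (0.165 to 0.227 FPKM), with neither difference past the rule. How many of all genes have this order was not counted. D030018L15Rik had 0 to 13 reads a library and a mean of 0.0755 FPKM, under the minimum for testing. It was at 0 reads in WT labelled THY1+ replicate 3, where 3 reads, the limit that a count of 0 allows for counting error, would be worth 0.0515 FPKM.

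**Figure D3:**
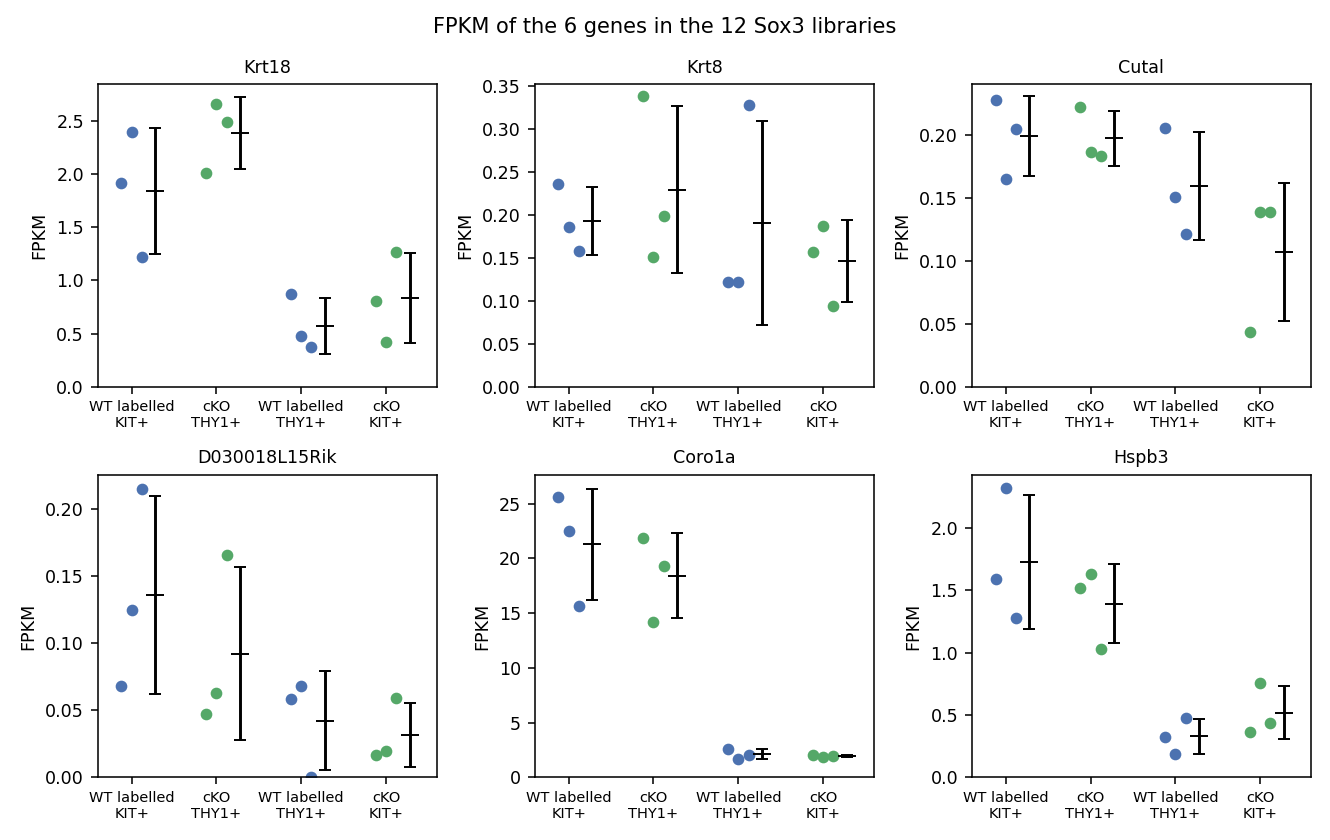
FPKM (y axis, linear from 0, a scale for each gene) of the 6 genes in the 12 Sox3 libraries, by labelled group on the x axis, in the order WT labelled KIT+, cKO THY1+, WT labelled THY1+ and cKO KIT+, where coloured points are libraries and the black mark and bar the mean and SD of 3. Coro1a is at 14.2 to 25.6 FPKM in the first 2 groups and at 1.69 to 2.56 FPKM in the last 2, and Krt8, Cutal and D030018L15Rik stay under 0.35 FPKM in all 4.

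Loss of SOX3 was tested as the mean of the cKO libraries of both fractions against the mean of the WT libraries of both, which does not depend on which WT group is which fraction. None of the 5 tested genes was past the rule (limma), beside 10.3% of all 21212 genes, and none had an unadjusted p under 0.05. Of all genes, 8155 were at that p. The change on the log2(FPKM + 0.1) scale was 0.42 for Krt18, with a 95% interval from -0.17 to 1.0 (adjusted p = 0.276). It was -0.03 for Krt8 (-0.51 to 0.46, adjusted p = 0.947), -0.18 for Cutal (-0.56 to 0.20, adjusted p = 0.482), -0.14 for Coro1a (-0.47 to 0.19, adjusted p = 0.531) and 0.13 for Hspb3 (-0.39 to 0.64, adjusted p = 0.724). These values were not tested against those of the Zbtb16 table, which was normalized apart. Other cell types moved in the same comparison. Leydig cell genes were higher in cKO in 8 of 8 with 5 past the rule (median log2 change 0.87), Sertoli cell genes in 9 of 11 with 6 past it (0.64), peritubular and stromal genes in 10 of 11 with 3 past it (0.50), endothelial genes in 9 of 9 with 4 past it (0.55) and pan-leukocyte genes in 10 of 12 with 2 past it (0.23). Germ cell genes were lower in 8 of 8 with 2 past the rule (-0.43), and those of differentiating spermatogonia in 7 of 8 with 3 past it (-0.43), against a median of 0.02 over all genes. Their part in the values of the 5 genes was not tested.

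**Figure D4:**
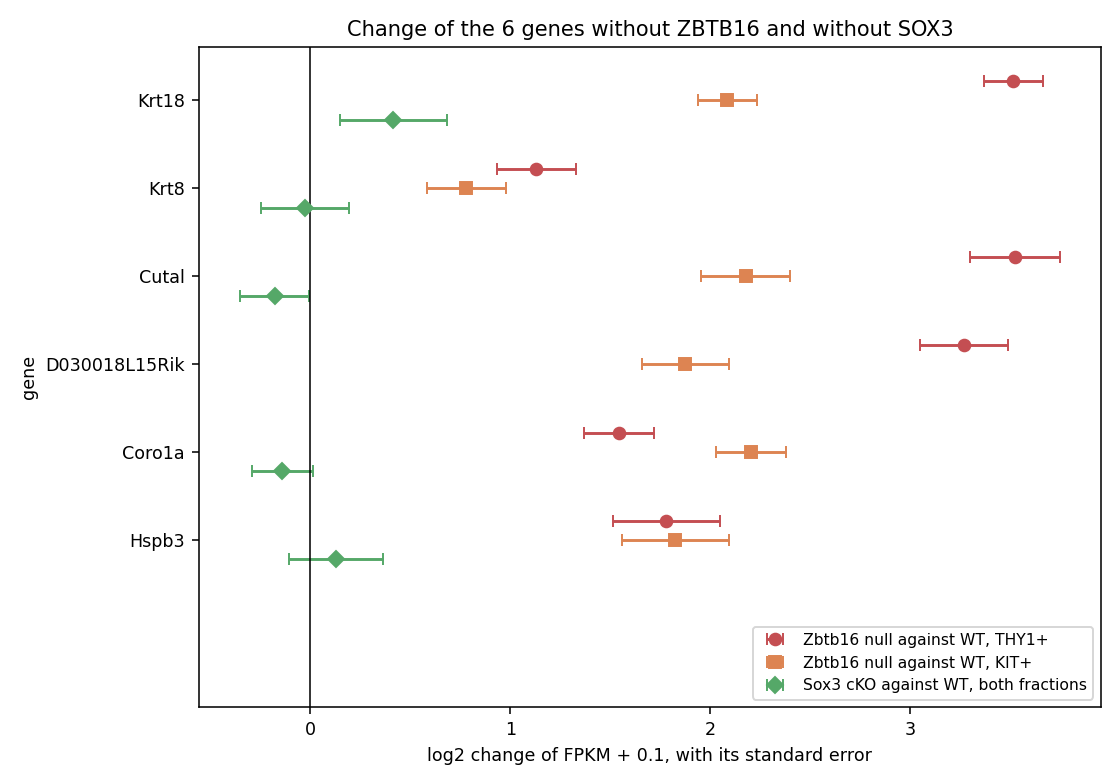
Change of FPKM + 0.1 on the log2 scale (x axis) for each gene (y axis) in Zbtb16 null against WT in THY1+ (red circles) and KIT+ (orange squares) and in Sox3 cKO against WT over both fractions (green diamonds), with bars of 1 standard error. The Zbtb16 changes run from 0.78 to 3.52 and the Sox3 changes from -0.18 to 0.42, and D030018L15Rik has no Sox3 value because it was under the minimum for testing.

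Between the cKO fractions, 3 of the 5 genes were lower in KIT+ than in THY1+, beside 12.2% of all genes. Coro1a fell by 3.14 ± 0.21 (limma, adjusted p = 8.42e-07), Krt18 fell by 1.51 ± 0.38 (adjusted p = 0.011) and Hspb3 fell by 1.30 ± 0.33 (adjusted p = 0.0127). Cutal had -0.56 ± 0.25 (adjusted p = 0.11) and Krt8 -0.40 ± 0.31 (adjusted p = 0.368). Within the less deeply sequenced replicates 2 and 3 alone, only Coro1a was past the rule. The Hspb3 call was lost without cKO KIT+ replicate 1 (-1.12).

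Taken by their labels, the WT fractions gave the opposite order. Coro1a was higher in WT labelled KIT+ by 3.26 ± 0.21 (limma, adjusted p = 5.84e-07), Hspb3 by 2.11 ± 0.33 (adjusted p = 0.000728) and Krt18 by 1.55 ± 0.38 (adjusted p = 0.0105), so that 3 of 5 were called higher beside 13.1% of all genes. The comparison of cKO with WT as labelled therefore gave 3 genes higher in THY1+, beside 17.8% of all genes, and the same 3 lower in KIT+, beside 12.6%. In THY1+ these were Coro1a (3.07 ± 0.21), Krt18 (1.95 ± 0.38) and Hspb3 (1.83 ± 0.33), and in KIT+ they were -3.34 ± 0.21, -1.12 ± 0.38 and -1.58 ± 0.33 in that order. Genotype cannot be told apart from fraction in these labelled comparisons. The Krt18 value in KIT+ lost its call when WT labelled KIT+ replicate 1 or 2 or cKO KIT+ replicate 1 or 2 was left out (-1.15 to -0.75), and in replicates 2 and 3 alone Krt18 (-1.10) and Hspb3 (-1.43) both lost theirs.

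Groups with like Thy1 levels were compared as well. Between cKO THY1+ and WT labelled KIT+ none of the 5 genes was past the rule (limma), beside 0.0707% of all genes, and none had an unadjusted p under 0.05. Of all 21212 genes, 2793 were at that p. The differences were 0.40 for Krt18 (95% interval -0.43 to 1.22), -0.20 for Coro1a (-0.67 to 0.27), -0.28 for Hspb3 (-1.01 to 0.45), 0.14 for Krt8 (-0.55 to 0.82) and -0.0049 for Cutal (-0.54 to 0.53). Between cKO KIT+ and WT labelled THY1+ none was past the rule either, beside 17.0% of all genes, with none at an unadjusted p under 0.05. Of all 21212 genes, 8080 were at that p here. There the differences were 0.44 for Krt18 (-0.39 to 1.26), -0.08 for Coro1a (-0.54 to 0.39), 0.53 for Hspb3 (-0.20 to 1.26), -0.19 for Krt8 (-0.87 to 0.50) and -0.35 for Cutal (-0.89 to 0.19).

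The families of the members were then followed in the Zbtb16 mice. Their lists held 103 other genes, of which 61 were expressed enough to be tested. In THY1+, 6 rose and 2 fell in null, and 3.98% of all genes were called in either direction. The median log2 change was 0.00031 over the 61 genes and -0.03 over all genes. In KIT+ none was past the rule (limma), where 0.259% of all genes were, with 15 of 61 at an unadjusted p under 0.05. Of all 22374 tested genes, 3863 were at that p in KIT+ and 5325 in THY1+. The THY1+ count of 8 was 4 without WT THY1+ replicate 1, null THY1+ replicate 1 or null THY1+ replicate 3 and 5 without WT THY1+ replicate 3, and 3 when only genes with a mean of 1 FPKM or more were tested.

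Type I keratins, the class of Krt18, gave 4 of the 6 genes that rose. Of the 11 tested besides Krt18, Krt23 rose from 0.550 ± 0.127 to 1.498 ± 0.178 FPKM in THY1+ (log2 change 1.31 ± 0.19, limma, adjusted p = 0.00372), Krt28 rose by 0.91 ± 0.15 (adjusted p = 0.00808), Krt17 by 0.83 ± 0.19 (adjusted p = 0.033) and Krt24 by 0.74 ± 0.19 (adjusted p = 0.0485). The median of the 11 was 0.59. Of the 11, 10 had a positive change. Levels were low, with means over the 12 libraries of 0.270 FPKM for Krt28 and 1.32 FPKM for Krt24, and Krt10, the most abundant one not called, had 0.44 ± 0.18 (adjusted p = 0.165). In KIT+ none of the 11 was past the rule, with 5 at an unadjusted p under 0.05. Krt80 was the one other type II keratin above the minimum for testing, with -0.26 ± 0.29 (adjusted p = 0.621), so that apart from Krt8 hardly any type II partner was measured.

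Other intermediate filaments and the proteins that anchor keratins gave 1 call each. Nefh, the heavy neurofilament, rose by 0.74 ± 0.09 in THY1+ (limma, adjusted p = 0.00184), from 8.39 ± 0.186 to 14.03 ± 0.494 FPKM, among 13 tested genes with a median of -0.19. Pkp2, a plakophilin of desmosomes, rose by 0.85 ± 0.10 (adjusted p = 0.000985), from 4.76 ± 0.0575 to 8.64 ± 0.415 FPKM, among 12 tested with a median of 0.04. Vimentin (Vim), the most abundant filament, had -0.65 ± 0.29 (adjusted p = 0.196), and the plakin Dst had -0.22 ± 0.12 (adjusted p = 0.278).

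Coro1a is 1 of 7 coronins in the table. None of the 6 others was past the rule in THY1+ (limma), with 1 at an unadjusted p under 0.05 and a median of -0.18, and none was in KIT+, with 0 at that p. Coro1b, the most abundant, had -0.08 ± 0.13 (adjusted p = 0.74). None of the 9 Arp2/3 subunits was past the rule in THY1+, with 3 at an unadjusted p under 0.05 and a median of -0.04, or in KIT+, with 0 at that p, and Arpc2 had -0.15 ± 0.09 (adjusted p = 0.336).

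Among 8 small heat shock proteins besides Hspb3, 2 moved the other way. Hspb2, whose protein pairs with HSPB3 in muscle, fell by 1.07 ± 0.24 in THY1+ (limma, adjusted p = 0.028), from 0.871 ± 0.236 to 0.360 ± 0.0910 FPKM. Cryab, the lens crystallin and stress chaperone, fell by 1.03 ± 0.20 (adjusted p = 0.0168), from 2.78 ± 0.680 to 1.28 ± 0.0369 FPKM. The most abundant one not called, Hspb9, had 0.23 ± 0.24 (adjusted p = 0.581). In KIT+ none of the 8 was past the rule, with 3 at an unadjusted p under 0.05. Cuta, the relative of Cutal, was at 33.2 FPKM in WT THY1+ and 34.6 FPKM in null THY1+, with 0.06 ± 0.11 (adjusted p = 0.763).

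**Figure D5:**
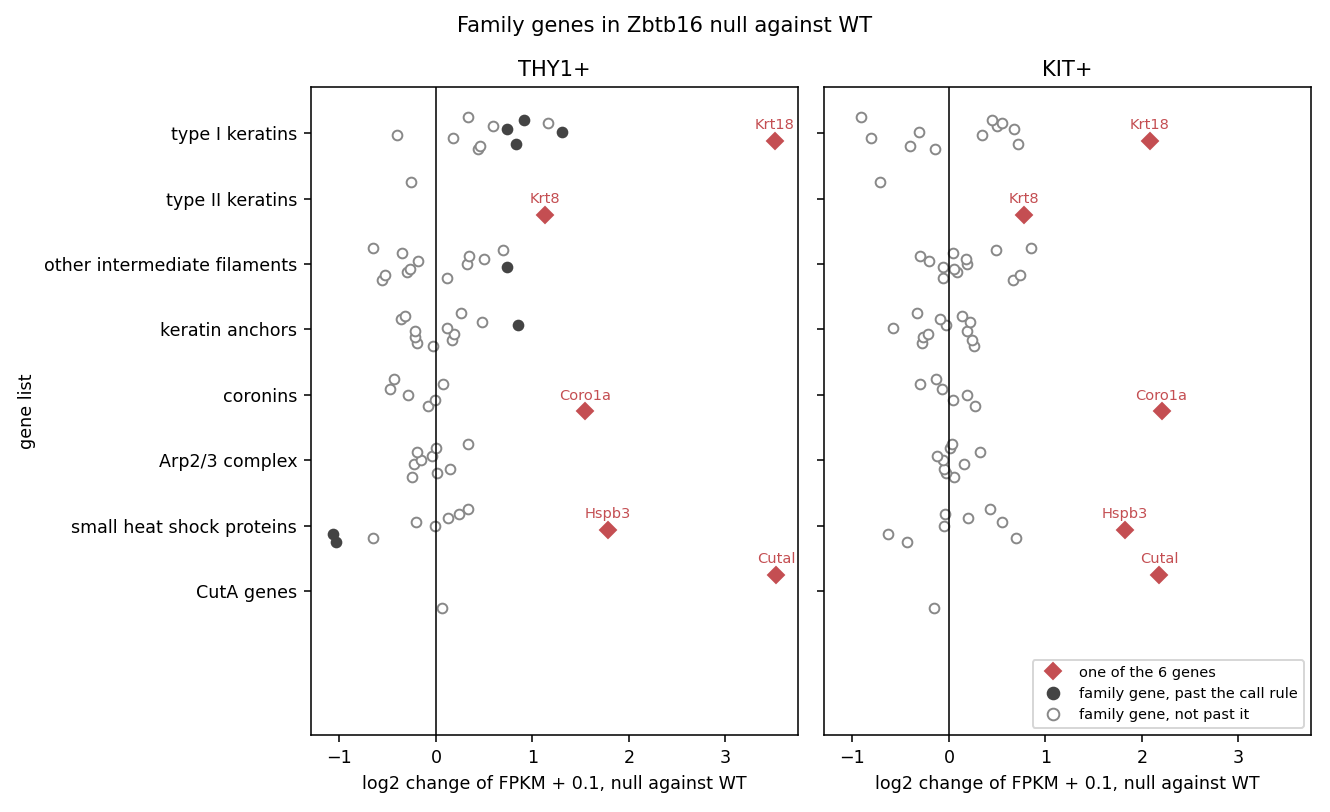
Log2 change of FPKM + 0.1 in Zbtb16 null against WT (x axis) in THY1+ (left) and KIT+ (right) for every tested gene of the 8 family lists (y axis), with red diamonds for the genes chosen here, filled circles for other genes past the rule and open circles for the rest. In THY1+ 8 other genes are filled, 4 of them type I keratins, and in KIT+ none is.

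Genes within 250 kb of the members' spans were tested to see how local the differences were. Among 66 such genes that the table holds, 63 could be tested, and 4 rose and 0 fell in null THY1+, with 2.71% of all genes called higher there. In null KIT+ none was past the rule (limma), with 11 at an unadjusted p under 0.05, as were 3863 of all 22374 tested genes. The THY1+ count was 1 without WT THY1+ replicate 1 or 2 or null THY1+ replicate 1 or 3. Their median change was 0.12 in THY1+ and 0.12 in KIT+, and the range in THY1+ was -0.81 to 0.99.

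Of these 4 genes, 3 lay near Coro1a, which had 33 of the tested neighbours. Bola2, an iron-sulfur cluster assembly gene that shares 26 bases with Coro1a on the opposite strand, rose from 27.7 ± 4.98 to 54.8 ± 7.79 FPKM in THY1+ (0.99 ± 0.19, limma, adjusted p = 0.0171). Slx1b, which encodes a structure-specific endonuclease subunit, rose by 0.80 ± 0.14 (adjusted p = 0.0108), and 2510046G10Rik, annotated as antisense, rose by 0.67 ± 0.15 (adjusted p = 0.0258). Without a stated strand, reads of the 26 bases that Bola2 shares with Coro1a cannot be told apart by gene. Bola2 and Slx1b also overlap each other on opposite strands, from base 126695401 to 126695784, and their reads there cannot be told apart either. The same holds for reads of an antisense gene where it overlaps another. 2510046G10Rik lies 50179 bases from Coro1a and does not overlap it. Snx18, a sorting nexin 44332 bases from Hspb3, rose by 0.66 ± 0.17 (adjusted p = 0.0473).

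Around the other members no neighbour was past the rule. The nearest tested gene to Krt18 and Krt8 was Eif4b, a translation initiation factor 41746 bases from Krt18, at 0.04 ± 0.10 in THY1+ (limma, adjusted p = 0.825) and 0.24 ± 0.10 in KIT+ (adjusted p = 0.261). No gene on the other side of the pair was above the minimum for testing within the window. Next to Cutal, Phf19, which encodes a Polycomb-like protein, had -0.14 ± 0.25 (adjusted p = 0.758) and Fbxw2 -0.04 ± 0.10 (adjusted p = 0.822) in THY1+. Next to D030018L15Rik, 2610037D02Rik had 0.18 ± 0.15 (adjusted p = 0.494) and Ano6 -0.48 ± 0.29 (adjusted p = 0.33). On the far side of Hspb3, Arl15 had 0.19 ± 0.14 (adjusted p = 0.429).

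The genes whose levels ran most like each member were sought by Pearson's r of log2(FPKM + 0.1) over the 12 Zbtb16 libraries, among 16524 genes with a mean of 1 FPKM or more. The libraries share 4 groups, so r reflects group means and is a description. Krt18 was closest to Rxrg, a retinoid X receptor (r = 0.991), Abcb1b, a drug efflux pump (0.987), and Cutal (0.983). Cutal was closest to Krt18 (0.983), Rxrg (0.980) and Syt12, a synaptotagmin (0.974). D030018L15Rik was closest to Gpr180 (0.984), the kinase gene Itpka (0.981) and Syt12 (0.980), and Krt8 to Gpr180 (0.963), Evi5 (0.951) and BC049635 (0.948). Over the 12 Sox3 libraries the same pairs had r of 0.519, 0.720 and 0.486 for Krt18, 0.486, 0.540 and 0.214 for Cutal, -0.228, 0.408 and 0.583 for D030018L15Rik, and -0.293, -0.232 and -0.273 for Krt8.

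Coro1a and Hspb3 had other partners. Coro1a was closest to Rfx8 (r = 0.987), Pla2g7, a phospholipase (0.982), and Vat1l (0.980), and Hspb3 to the kinase gene Sgk1 (0.989), Rfx8 (0.983) and Pla2g7 (0.982). In the Sox3 libraries these values were 0.964, 0.992 and 0.915 for Coro1a and 0.875, 0.881 and 0.864 for Hspb3. Between the members themselves r in the Zbtb16 libraries was 0.983 for Krt18 and Cutal, 0.964 for Coro1a and Hspb3 and 0.674 for Krt8 and Coro1a. Pla2g7 was 23.0 FPKM in WT THY1+ and 49.2 FPKM in null THY1+, the same order as Coro1a, and Rxrg was 0.645 and 6.86 FPKM, the same order as Krt18.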

How the data were processed

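RNA of 24 libraries was measured by stranded sequencing after ribosomal RNA removal. The authors aligned single reads to mm10 with Novoalign and made the deposited FPKM values with USeq, 1 table for each mouse line, and tested with DESeq2. Groups came from the sample labels. FPKM values are not counts, so log2(FPKM + 0.1) of genes with a mean of at least 0.1 FPKM (22374 of 23177 in the Zbtb16 table, 21212 of 21688 in the Sox3 table) was fitted over the 4 groups of a table with limma 3.58.1 in R 4.3.3 (robust, trended variance). P-values were adjusted by Benjamini-Hochberg over all tested genes, and a call needed an adjusted p of at most 0.05 and 1.5-fold. The added 0.1 understates changes of low genes. Reads were recovered from the FPKM steps, where 75.0 to 78.9% of low values were whole within 0.01 read, so read numbers are estimates and their limits cover counting error only.

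The genes, family and marker lists and tests were chosen with earlier results of these data known. Named genes were the 6 chosen ones, family genes past the rule and the most abundant uncalled one of each family, the nearest neighbours and those past the rule, and the 3 genes with the highest r. Cd68, Dppa4 and Psmd5 were named after their values were seen. Deviations of same-numbered replicates from their group means correlated at -0.0278 to 0.520 (Zbtb16, mean 0.33) and -0.119 to 0.348 (Sox3, mean 0.15). Of 18 such comparisons in each table, 16 and 12 were over 0.1. These replicates were not treated as pairs. Promoter windows came from RefSeq. Protein sequences were not used here. Alternatives were another added value, other filters and scalings, a replicate block, 2-group fits, replicates 2 and 3 alone in the Sox3 table, and each library left out.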

Additional observations from a re-analysis of the deposited data

Results flagged for a closer look

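In the Sox3 table, the cKO against WT difference as labelled was positive in THY1+ and negative in KIT+ for all 5 tested genes, and for 3 of them the difference between the fractions was past the rule (limma with Benjamini-Hochberg adjustment). The same test called 3531 genes higher and 4427 lower of 21212, so that such a difference was common in this table. The KIT+ difference less the THY1+ difference on the log2(FPKM + 0.1) scale was -6.41 ± 0.30 (SE) for Coro1a (adjusted p = 1.55e-08), -3.41 ± 0.47 for Hspb3 (adjusted p = 0.000142) and -3.07 ± 0.53 for Krt18 (adjusted p = 0.000757). In all 3 genes each cKO THY1+ library was above each WT library labelled THY1+. How many of all genes have this order was not counted, and 17.8% of them were called higher in that comparison. In the same table the levels of Thy1 and Kit in the WT libraries are opposite to their fraction labels, and as labelled genotype and fraction cannot be told apart.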

How the results depend on the processing

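Over 652 refits of single genes under other settings, 604 kept the direction and the side of the threshold, 18 lost a call and 30 changed sign, none of the latter a call in either form. With 1 added to FPKM, 2 of the 6 genes in place of 4 were lower in WT KIT+ than in WT THY1+. Among replicates 2 and 3 alone, 1 of 5 in place of 3 was called between the cKO fractions and 1 in place of 3 between cKO and WT as labelled in KIT+. The count of family genes called in THY1+, 8, was 4 with 1 added to FPKM, 3 at a mean of at least 1 FPKM, 5 with only the 2 groups compared, and 4 to 8 without single libraries, and that of neighbours, 4, was 1 to 3 without single libraries. The replicate number was also used as a block, although the sources do not say whether same-numbered libraries were paired. With it, 2 family genes in place of 0 were called in KIT+ and 11 in place of 8 in THY1+. Calls over all genes were then 1980 in place of 890 in THY1+ and 513 in place of 58 in KIT+. The counts of the 6 genes called in the WT fraction and Sox3 comparisons, those refitted with the block, did not change. The cause of these differences was not tested.

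Sign changes were near 0 on the log2 scale. For Krt8, the WT fraction difference was 0.13 with quantile normalization and -0.18 to 0.040 without single libraries in the Zbtb16 table, and under the Sox3 labels -0.19 with quantile normalization, -0.18 in replicates 2 and 3 alone and -0.083 to 0.39 without single libraries. Its cKO average was -0.14 to 0.13 without single libraries. Its THY1+ difference as labelled was -0.061 with quantile normalization, -0.17 in replicates 2 and 3 alone and -0.014 to 0.53 without single libraries. Without single libraries it was -0.090 to 0.31 for cKO THY1+ against WT labelled KIT+ and -0.35 to 0.13 for cKO KIT+ against WT labelled THY1+. For Cutal, quantile normalization gave -0.070 between the labelled WT fractions and -0.092 in THY1+ as labelled, and replicates 2 and 3 alone gave 0.011 for the cKO average and 0.019 for cKO KIT+ against WT labelled THY1+. Against WT labelled KIT+, Cutal in cKO THY1+ was at 0.015 with median-of-ratios scaling, 0.0041 in replicates 2 and 3 alone and -0.089 to 0.064 without single libraries. Coro1a in cKO KIT+ against WT labelled THY1+ was at 0.029 in replicates 2 and 3 alone and -0.22 to 0.066 without single libraries, and the Hspb3 average at -0.0026 to 0.25. Krt8, Cutal and D030018L15Rik had at most 18 reads in any Sox3 library, which limits what could be seen there.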
